A study of Sus scrofa with 12 samples.

Results

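Genes of the neuromuscular junction were examined in RNA-seq counts of the longissimus dorsi (LD) muscle of Iberian pigs. The set was a list of 10 symbols covering the subunits of the muscle acetylcholine receptor (CHRNA1, CHRNB1, CHRND, CHRNE and CHRNG) and the machinery that gathers the receptor under the nerve ending (MUSK, LRP4, RAPSN, DOK7 and COLQ). A gene was taken where its pig Ensembl identifier carried one of these symbols and had a row in the count tables, which held 25880 genes. This gave 5 genes, CHRNA1 (ENSSSCG00000015969), CHRNE (ENSSSCG00000017909), MUSK (ENSSSCG00000005456), LRP4 (ENSSSCG00000013248) and COLQ (ENSSSCG00000028911). CHRNB1, CHRND and CHRNG had an identifier without a row and RAPSN and DOK7 had no identifier in the name table, so these 5 genes were not analysed here. Of the 5 genes with a row, 4 passed the filter on low counts and were tested among 13373 genes, and COLQ did not pass it.

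The study chose 12 castrated Iberian males of a closed commercial population with the most divergent breeding values for muscle myoglobin, the red oxygen-binding pigment of meat. The High MB group held 6 pigs with 2.48 ± 0.0657 mg of myoglobin per g of muscle (SD, n = 6) and the Low MB group 6 pigs with 1.39 ± 0.147 mg/g (SD, n = 6). Pigs of both groups were finished outdoors on acorns and grass, and the labels name no treatment or introduced mutation. One library per pig was sequenced, with 38914271 to 91318334 counts on genes. The groups were chosen from 1 population by breeding value, so other traits that go with the breeding value cannot be told apart from it. The labeled tissue was checked against its markers, of which 5 of 10 listed muscle genes had a row. Their summed level was between 39400 and 116000 CPM (counts scaled to a common library size) in every pig.

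The neuromuscular junction is the synapse at which a motor neuron commands a muscle fiber. Agrin released by the nerve binds LRP4 on the fiber, LRP4 switches on the receptor kinase MUSK, and MUSK with its adaptors packs acetylcholine receptors into the small patch of membrane that faces the nerve. In adult muscle the receptor holds the epsilon subunit, encoded by CHRNE, in the place that the gamma subunit of fetal and denervated fibers takes, while the alpha subunit, encoded by CHRNA1, is common to both forms. Because the nuclei under the synapse are a small minority in a fiber, they give only a part of the RNA of a whole piece of muscle. In such bulk tissue, fewer synaptic nuclei and less RNA per nucleus cannot be told apart.

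Transcription of receptor subunit genes is classically tied to E-boxes (CANNTG), which myogenic factors bind, and to N-boxes (CCGGAA), which synaptic nuclei use through GABP. The 250 bases before the annotated start of transcription are shown for the receptor subunits and for MUSK, because the comparisons turn on these 3 genes. They were read 5′ to 3′ on the strand of the gene from the RefSeq genome of Sscrofa11.1, the build to which the reads were aligned, at chr15:80692257-80692506 (minus strand, CHRNA1), chr12:52010607-52010856 (plus strand, CHRNE) and chr1:251649901-251650150 (plus strand, MUSK). Capitals mark E-boxes.
CHRNA1: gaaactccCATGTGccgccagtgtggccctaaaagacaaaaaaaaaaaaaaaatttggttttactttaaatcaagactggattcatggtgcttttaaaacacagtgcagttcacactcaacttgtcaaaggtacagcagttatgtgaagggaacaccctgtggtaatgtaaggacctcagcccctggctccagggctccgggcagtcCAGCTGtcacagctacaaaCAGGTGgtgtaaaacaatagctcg
CHRNE: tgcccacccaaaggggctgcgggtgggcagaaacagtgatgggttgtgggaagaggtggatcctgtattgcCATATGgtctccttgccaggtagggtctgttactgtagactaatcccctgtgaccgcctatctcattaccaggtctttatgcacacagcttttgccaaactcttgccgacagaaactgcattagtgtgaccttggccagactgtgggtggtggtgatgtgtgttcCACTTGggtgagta
MUSK: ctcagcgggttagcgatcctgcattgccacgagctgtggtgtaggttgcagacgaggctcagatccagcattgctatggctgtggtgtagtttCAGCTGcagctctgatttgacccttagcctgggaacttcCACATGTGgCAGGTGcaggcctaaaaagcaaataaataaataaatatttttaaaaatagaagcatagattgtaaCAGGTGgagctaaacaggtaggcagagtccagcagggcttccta
The CHRNA1 window held 3 E-boxes, whose first bases were 242, 43 and 24 bases before the start. The CHRNE window, taken at the start shared by 4 of its 5 RefSeq transcript models, held 2, at 179 and 14 bases. The MUSK window, at the start shared by 2 of 4 models, held 5, at 157, 118, 116, 109 and 44 bases, and the pair at 118 and 116 overlapped. Among 19559 windows of equal length before protein-coding genes, at least 1 E-box was found in 62.0%, at least 2 in 28.3%, at least 3 in 10.2% and at least 5 in 0.777%. Repeats masked by the assembly covered 79.2% of the MUSK window, 25.6% of the CHRNA1 window and 8.8% of the CHRNE window. The COLQ window held 1 E-box and the LRP4 window none. The letters CCGGAA were found on neither strand of the 5 windows, against 13.8% of all windows, which says only that these letters are not in these 250 bases.

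In the same RefSeq annotation of Sscrofa11.1, CHRNA1 spans chr15:80673072-80692256 (minus strand), CHRNE chr12:51999504-52016592 (plus strand), MUSK chr1:251650151-251758538 (plus strand), LRP4 chr2:15616137-15672876 (plus strand) and COLQ chr13:2677738-2755635 (minus strand). CHRNE is annotated there as a long noncoding RNA with 5 models, and it shares 296 bases with MINK1 on the opposite strand. MUSK lies wholly within the span of the uncharacterized gene LOC110256901 on the opposite strand. The library kit does not mark strand, so reads from shared stretches of such pairs cannot be told apart.

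The order of the levels was set per kilobase of exon, because longer transcripts collect more reads. CHRNE (2.66 CPM per kilobase, mean of 12 pigs) and CHRNA1 (2.41) stood first, LRP4 (0.435) and MUSK (0.372) followed, and COLQ (0.0559) was last. CHRNE ran from 1.78 to 3.42 and CHRNA1 from 1.4 to 3.55 over the pigs, so these neighbors did not differ beyond their spread. LRP4 ran from 0.296 to 0.600, inside the range of MUSK from 0.111 to 0.744. The highest pig for COLQ (0.135) lay within the MUSK range but below every LRP4 value. The lengths were those of RefSeq exons, while the reads had been counted on Ensembl identifiers.

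The question of the design was which genes set High MB pigs apart from Low MB pigs. No gene of the set was called at an adjusted p-value under 0.10 with an absolute log2 fold change (log2 FC) over 0.58 in edgeR's quasi-likelihood test, and neither was any other gene (0 of 13373, 0%). DESeq2 with its defaults called 29 genes (0.151% of 19220), none of them a junction gene. At an unadjusted p-value under 0.05 there were 1132 genes (8.46%), 713 of them higher in the High MB group (5.33%) and 419 lower (3.13%), or 914 higher and 201 lower with upper quartile scaling in place of TMM. CHRNE was the only junction gene among them, 1 of 4 tested. The log2 FC of the 4 tested genes was positive for 2 and negative for 2, with a median of 0.04, and the median of all genes tested was -0.02.

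**Figure D1:**
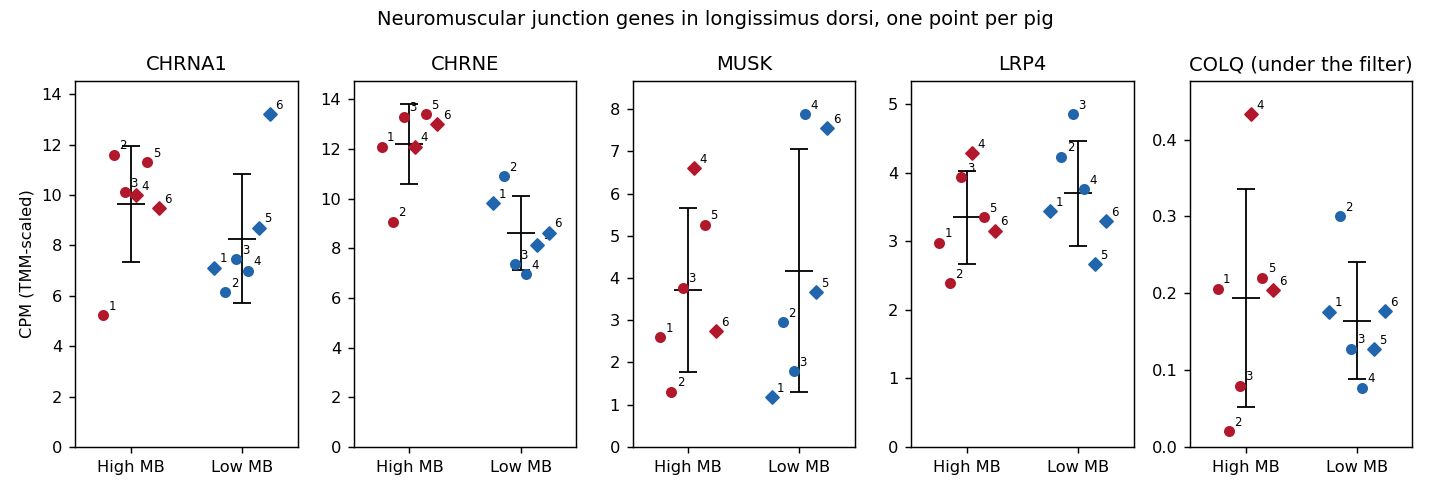
Level of each junction gene in CPM (vertical axes, from 0) for every pig of the High MB group (red) and the Low MB group (blue), with pig numbers beside the points, diamonds for deep libraries (the 5 with over 5e+07 gene counts) and circles for the 7 standard ones, and bars for the mean ± SD (n = 6). For CHRNE, 5 of the 6 High MB pigs lie above all Low MB pigs, while the groups overlap widely for the other genes.

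CHRNE, the epsilon subunit that marks the adult receptor, showed the clearest separation. In the High MB pigs, numbered as in their labels, CHRNE measured 12.1, 9.07, 13.3, 12.1, 13.4 and 13.0 CPM. In the Low MB pigs it measured 9.81, 10.9, 7.36, 6.95, 8.15 and 8.63 CPM. All High MB pigs but pig 2 lay above the highest Low MB pig, and 4 Low MB pigs lay below every High MB pig, so the groups overlapped only through that pig and the Low MB pigs 1 and 2. Among all genes tested, 57 (0.426%) had groups without overlap, a stricter condition that CHRNE did not meet. The share of genes separated as far as CHRNE was not counted.

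CHRNE averaged 12.2 ± 1.61 CPM over the High MB pigs and 8.63 ± 1.49 CPM over the Low MB pigs (SD, n = 6 each), a fold of 1.41 (log2 FC 0.49, SE 0.14, 95% interval 0.20 to 0.79). The unadjusted p-value in edgeR was 0.00303, which ranked 57 among the 13373 genes, and the exact two-sided permutation p was 0.00649 with 6 pigs against 6. After Benjamini-Hochberg adjustment over all genes the edgeR p-value was 0.563, so the difference did not pass. In DESeq2 the log2 FC was 0.50, with an unadjusted p-value of 0.00099 and an adjusted one of 0.153, which passed neither limit. The difference was of like size in the 5 deep libraries (0.55, SE 0.17) and the 7 standard ones (0.52, SE 0.23), and between 0.46 and 0.59 with any 1 pig left out. MINK1, the kinase gene that shares bases with CHRNE on the other strand, measured 32.6 ± 2.36 CPM and 28.3 ± 3.82 CPM (SD, n = 6 each), a log2 FC of 0.20 (SE 0.10, exact permutation p = 0.0519), and its part in the CHRNE counts was not tested.

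CHRNA1, the alpha subunit that binds acetylcholine in fetal and adult receptors alike, did not separate the groups. It measured 5.22, 11.6, 10.1, 10, 11.3 and 9.48 CPM in the High MB pigs. In the Low MB pigs it measured 7.11, 6.15, 7.44, 7, 8.70 and 13.2 CPM. The lowest of all 12 values belonged to the High MB pig 1 and the highest to the Low MB pig 6, each against the direction of its group's mean, and 5 of 6 High MB pigs lay above the Low MB median. The means were 9.63 ± 2.31 and 8.27 ± 2.57 CPM (SD, n = 6 each), with a log2 FC of 0.22 (SE 0.21, 95% interval -0.24 to 0.67, adjusted edgeR p = 0.800, exact permutation p = 0.370). The value rested on library class and on single pigs: it was 0.05 in the deep libraries, 0.49 in the standard ones and 0.40 without the Low MB pig 6, where its unadjusted edgeR p-value fell just under 0.05.

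Setting CHRNE against CHRNA1 within each pig asks whether the adult-specific subunit moved apart from the shared one. The log2 ratio of the CPM values was 1.21, -0.36, 0.39, 0.27, 0.24 and 0.46 in the High MB pigs and 0.46, 0.82, -0.01, -0.01, -0.09 and -0.61 in the Low MB pigs. The highest ratio was that of the High MB pig 1, where CHRNA1 was low, and the lowest that of the Low MB pig 6, where CHRNA1 was high. The mean ratio was 0.37 ± 0.50 and 0.09 ± 0.49 (SD, n = 6 each), a difference of 0.28 that the spread between pigs covered (exact two-sided permutation p = 0.364). Without the High MB pig 1 the difference was 0.11, and without the High MB pig 2 it was 0.42.

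**Figure D2:**
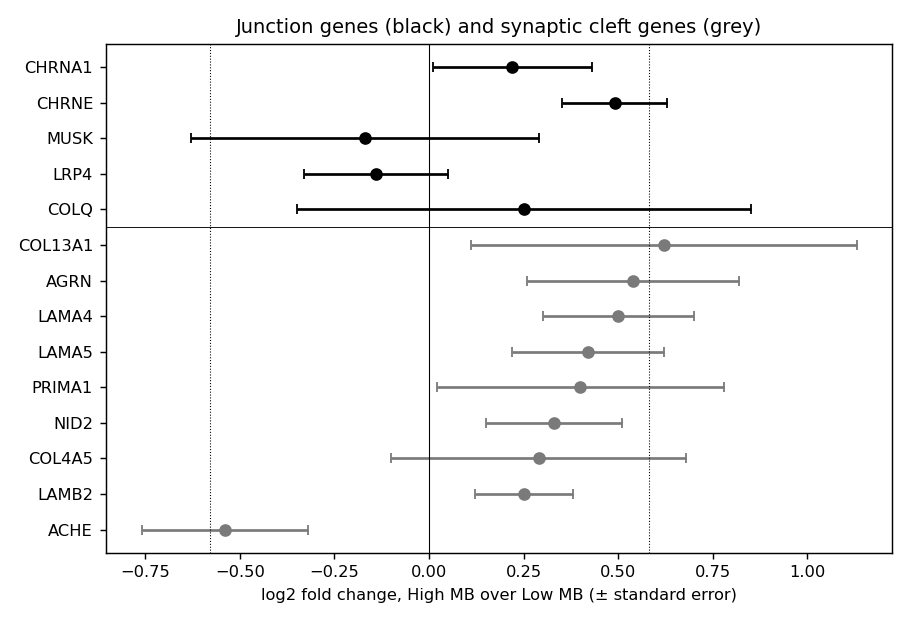
Log2 fold change of the High MB over the Low MB group (horizontal axis) with its standard error (bars) for the junction genes (black, COLQ from the fit without the filter) and the genes of the synaptic cleft list (grey), with dotted lines at the limit of 0.58 in either direction. Only the bar of CHRNE among the black points lies well clear of 0, and 8 of the 9 cleft genes have positive values, with ACHE at -0.54.

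LRP4, the agrin receptor of the fiber membrane, held a narrow range in both groups. It measured 2.98, 2.39, 3.93, 4.28, 3.35 and 3.15 CPM in the High MB pigs and 3.44, 4.23, 4.85, 3.76, 2.66 and 3.29 CPM in the Low MB pigs. The groups interleaved, and only 1 Low MB pig lay above all High MB pigs. The means were 3.35 ± 0.676 and 3.70 ± 0.765 CPM (SD, n = 6 each), with a log2 FC of -0.14 (SE 0.19, 95% interval -0.54 to 0.26, adjusted edgeR p = 0.859, exact permutation p = 0.420). Its sign turned with the depth of the libraries, from 0.29 (SE 0.27) in the deep ones to -0.43 in the standard ones.

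MUSK, the kinase through which agrin and LRP4 act, varied most between pigs among the tested junction genes. In the High MB pigs it measured 2.60, 1.31, 3.77, 6.6, 5.26 and 2.74 CPM. In the Low MB pigs it measured 1.18, 2.95, 1.80, 7.88, 3.66 and 7.55 CPM. Each group ran from values near 1 CPM to values several times higher, and the highest pig exceeded the lowest 6.70-fold, against 2.53-fold for CHRNA1, 2.03-fold for LRP4 and 1.92-fold for CHRNE. The means were 3.71 ± 1.94 and 4.17 ± 2.88 CPM (SD, n = 6 each), with a log2 FC of -0.17 (SE 0.46, 95% interval -1.16 to 0.83, adjusted edgeR p = 0.942, exact permutation p = 0.963). The interval includes a doubling in the Low MB group, and the sign turned positive in the deep libraries (0.22) and when the Low MB pig 4 was left out (0.13).

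The spread of MUSK was set beside that of all genes as a description. The SD of its log2 CPM within groups was 0.96, at percentile 94.7 of the 13373 genes tested, whose median was 0.33. CHRNA1 (0.41, percentile 63.1), LRP4 (0.30, percentile 43.7) and CHRNE (0.23, percentile 26.3) were nearer the middle. LRP4 was measured at a like depth, with 115 to 293 counts per pig against 63 to 469 for MUSK, and its SD was smaller. Of CHRNA1 there were 203 to 882 counts per pig and of CHRNE 270 to 1211.

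**Figure D3:**
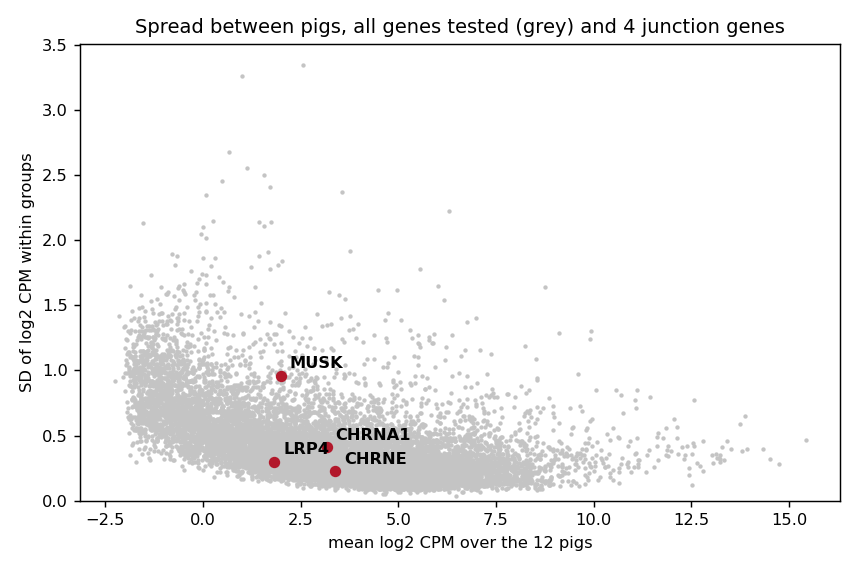
SD of log2 CPM within groups (vertical axis) against the mean log2 CPM over the 12 pigs (horizontal axis) for all 13373 genes tested (grey points) and the 4 tested junction genes (red). MUSK (SD 0.96) lies at percentile 94.7 of all genes, while CHRNA1, LRP4 and CHRNE lie within the grey band.

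COLQ, the collagen tail that anchors acetylcholinesterase in the synaptic cleft, was near the limit of detection. The High MB pigs held 8, 1, 3, 26, 9 and 19 counts and the Low MB pigs 12, 12, 5, 3, 8 and 11, or 66 and 51 counts in all. After scaling for depth the mean was 0.194 ± 0.142 and 0.164 ± 0.0762 CPM (SD, n = 6 each), and the High MB pigs gave both the lowest value (0.0208) and the highest (0.433). Without the filter on low counts the log2 FC was 0.25 (SE 0.60, 95% interval -1.02 to 1.51, exact permutation p = 1). This interval includes a doubling in either group. In the deep libraries alone the log2 FC was 1.01 (SE 0.69), with 2 High MB and 3 Low MB pigs.

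The levels of the tested junction genes were set against each other across pigs. Pearson's r of log2 CPM over the 12 pigs was between -0.25 (CHRNA1 with LRP4) and 0.29 (CHRNA1 with MUSK) in the 6 pairs, and none had a permutation p under 0.05, also not by Spearman's rho. MUSK and LRP4, partners in the agrin receptor, had r = 0.22 (permutation p = 0.483) and rho = 0.22 (permutation p = 0.497), and r = -0.11 without the 2 pigs farthest from the median of MUSK. In the High MB pigs alone MUSK and LRP4 had r = 0.91 (exact permutation p = 0.0208, 0.250 after adjustment over the 12 relations within groups) and rho = 0.94, and r = 0.52 without the 2 farthest pigs. In the Low MB pigs r was -0.28 (exact permutation p = 0.592), and the difference between the groups was not tested. CHRNE had r = 0.74 with MUSK and 0.71 with LRP4 in the High MB pigs (exact permutation p = 0.0861 and 0.117), which were -0.26 and 0.06 without the 2 farthest pigs. Within groups, none of 8 relations between a junction gene and the pig's myoglobin content had a permutation p under 0.05.

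Genes that work beside the set were described by list, of which few reached even an unadjusted p-value under 0.05. The cleft list (agrin, laminins, nidogen, acetylcholinesterase and others) had 9 genes tested of 11 with a row, 1 of them higher in the High MB group and 1 lower, with a median log2 FC of 0.40 against -0.02 over all genes. The split of 1 and 1 moved with the processing. It was 0 higher and 1 lower with the slow fiber level as a covariate. In the deep libraries alone it was 1 and 0, as it was, among others, without the High MB pig 1 or 3. It was 2 and 1 with TMM without the 10 highest genes, with at least 10 counts in every pig and, among others, without the High MB pig 4. With the depth class as a covariate or a block for the pig number shared between groups (replicate block) it was 3 and 1. It was 3 higher and 0 lower with upper quartile scaling, in the standard libraries alone and without the High MB pig 2, the Low MB pig 5 or the Low MB pig 6. LAMA4, a laminin chain of synaptic and vascular basement membranes, measured 23.1 ± 3.40 and 16.3 ± 5.55 CPM (log2 FC 0.50, SE 0.20, exact permutation p = 0.0303). ACHE, which splits acetylcholine, measured 1.47 ± 0.436 and 2.15 ± 0.316 CPM (log2 FC -0.54, SE 0.22, exact permutation p = 0.0108). AGRN, the agrin gene, measured 12 ± 4.84 and 8.28 ± 2.85 CPM (log2 FC 0.54, SE 0.28, exact permutation p = 0.173), where these are means with SD of 6 pigs in each group. The adjusted edgeR p-value was 0.563 for LAMA4 and ACHE and 0.607 for AGRN. NRG1, a nerve signal to synaptic nuclei, had 0 to 4 counts per pig and was not tested.

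In the High MB pigs the summed level of the cleft list ran from 217 to 280 CPM. In the Low MB pigs it ran from 175 to 212 CPM, without overlap. No other list examined here had a sum without overlap, and the sums were not tested. Among single genes tested, 0.426% had groups without overlap. LAMB2 alone gave 148 and 124 CPM of the cleft sum on average, and its groups overlapped (115 to 185 against 107 to 147 CPM). Agrin, laminins and nidogen are also made by vessels and connective tissue. Marker lists of such cells lay in the same direction: 3 of 5 fibroblast genes had an unadjusted p-value under 0.05, all higher in the High MB group (PDGFRA 0.91, COL1A2 0.71, COL1A1 0.67), with sums of 597 to 1070 against 305 to 787 CPM. That count ran from 1 (without the Low MB pig 1) to 5 (without the High MB pig 3), and was 5 with upper quartile scaling and 1 in the standard libraries alone. Of 4 endothelial genes none did, with a median log2 FC of 0.26 and sums of 114 to 157 against 70.1 to 175 CPM, but 3 did, all higher in the High MB group, without the Low MB pig 5 and 2 in the standard libraries alone. The part of these cells in the cleft values was not tested.

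On the side of the fiber, 27 genes of the postsynaptic scaffold and its signaling were tested, with a median log2 FC of -0.10. Only CRK, an adaptor that acts below MUSK, had an unadjusted edgeR p-value under 0.05 (340 ± 28.2 and 403 ± 53.9 CPM, log2 FC -0.25, exact permutation p = 0.0281, adjusted edgeR p = 0.578). The count of 0 higher and 1 lower became 1 higher and 0 lower with upper quartile scaling, with TMM without the 10 highest genes, with at least 10 counts in every pig, in the standard libraries alone and without the High MB pig 3 or 4 or the Low MB pig 2 or 3. It was 0 and 0 with RLE scaling, with no filter, in the deep libraries alone and without the High MB pig 5 or the Low MB pig 4. It was 2 higher and 3 lower with the slow fiber level as a covariate, 0 and 2 without the High MB pig 1, and 1 and 1 in DESeq2 and without the High MB pig 2 or 6. SCN4A, the sodium channel of muscle, had a log2 FC of 0.01, UTRN (utrophin, of the synaptic membrane) 0.20, and the neuregulin receptors ERBB2 and ERBB3 0.08 and -0.05. Of 6 genes of receptor glycosylation and assembly and 15 regulators of synaptic transcription, none had an unadjusted p-value under 0.05, except that 1 regulator was higher without the High MB pig 3, 1 lower without the High MB pig 2 and 2 lower without the Low MB pig 1. Among those regulators, MYOG (myogenin) had a log2 FC of -0.08 and GABPA, a subunit of the N-box factor, -0.15.

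Of 12 genes that respond to loss of the nerve, 1 had an unadjusted edgeR p-value under 0.05. This was KCNN3, a calcium-activated potassium channel, with 3.01 ± 1.18 and 5.27 ± 2.57 CPM (SD, n = 6 each), a log2 FC of -0.80 and an exact permutation p = 0.0887 (adjusted edgeR p = 0.570). The median of the list was -0.11. None was lower at that limit in the deep libraries alone, with the slow fiber level as a covariate (1 higher) and without the High MB pig 5 or 6 or the Low MB pig 2, 3 or 4, while 2 were lower with the replicate block or without the High MB pig 3. The gamma subunit CHRNG, whose return would mark denervated fibers, is among the genes not analysed here.

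Markers of the nerve and its Schwann cells were counted because a piece of muscle can hold more or less of the nerve. Of 10 such genes tested, 1 had an unadjusted edgeR p-value under 0.05: CDH19, a Schwann cell cadherin, with 0.198 ± 0.0691 and 0.431 ± 0.223 CPM (SD, n = 6 each), a log2 FC of -1.12 and an exact permutation p = 0.0736 (adjusted edgeR p = 0.563). The median was 0.02. No gene was lower at that limit with at least 10 counts in every pig, with the replicate block or the slow fiber covariate, in either depth class alone and without the High MB pig 2 or 5 or the Low MB pig 3 or 6, and 2 were lower without the Low MB pig 4. With upper quartile scaling and without the High MB pig 2, 1 gene was higher. The list summed to 69.5 to 88.6 CPM in the High MB pigs, against 59.5 to 86.2 CPM in the Low MB pigs. CHAT, SLC18A3 and SLC5A7, which mark the cholinergic neuron itself, were at 0 counts in all 12 pigs, which allows up to 3 counts of each in a library (counting error only). These counts do not measure how much nerve the pieces held, which was not tested.

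Genes of slow and fast fibers were set beside CHRNE. Of 8 genes listed for each fiber type, 6 slow and 5 fast ones had a row. The myosin heavy chain genes MYH7, MYH1 and MYH4 were listed but had no row, so the levels leave them out. Of 6 slow fiber genes 5 had an unadjusted edgeR p-value under 0.05, all higher in the High MB group, led by TNNC1 (log2 FC 0.58), TNNI1 (0.58) and TNNT1 (0.56), the slow troponin genes, and the list had a median of 0.54. The count was 5 in the standard libraries alone and 0 in the deep ones alone. Of 5 fast fiber genes, ATP2A1, the fast calcium pump, had such a p-value (log2 FC -0.44, exact permutation p = 0.0108), and the median was -0.12. That count fell to 0 with each other scaling tried in edgeR, with at least 10 counts in every pig, with the depth class covariate or the replicate block, in either depth class alone and without any 1 of the High MB pigs 1, 2 and 5 and the Low MB pigs 1 to 5. It was 2 without the High MB pig 6 and with the slow fiber level as a covariate. The adjusted edgeR p-value was 0.563 for the 3 troponins and 0.578 for ATP2A1. The slow fiber sum ran from 6430 to 12600 CPM in the High MB pigs and from 4840 to 8400 CPM in the Low MB pigs.

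Over the 12 pigs, CHRNE and the slow fiber level had r = 0.62 (permutation p = 0.0321) and rho = 0.57 (permutation p = 0.0555), and r = 0.72 without the 2 pigs farthest from the median. It was the only one of 24 relations between a tested junction gene and a list level whose Pearson p was under 0.05, and after adjustment over the 24 its p was 0.431. The relation did not hold within both groups: r was 0.77 in the High MB pigs (exact permutation p = 0.0736) and -0.30 in the Low MB pigs (exact permutation p = 0.567), and 0.23 with both groups centered. The difference between the groups' r was not tested, and the centered value was -0.11 without the High MB pig 2. In the 7 standard libraries r was 0.69 (exact permutation p = 0.0982). CHRNA1 and the macrophage level had r = 0.56 (permutation p = 0.0549, 0.431 adjusted) and rho = 0.59 (permutation p = 0.0463, 0.477 adjusted), with r = 0.48 without the 2 farthest pigs and 0.51 in each group. CHRNE and the fast fiber level had r = 0.12 over the 12 pigs (permutation p = 0.756) but 0.69 with both groups centered, 0.90 in the High MB pigs (exact permutation p = 0.0861) and 0.50 in the Low MB pigs (exact permutation p = 0.304). CHRNE and the macrophage level had r = 0.06 over the 12 pigs (permutation p = 0.866) but -0.69 centered, -0.87 in the High MB pigs (exact permutation p = 0.0556) and -0.53 in the Low MB pigs (exact permutation p = 0.289). The High MB pig 2, the lowest of its group for CHRNE, had the lowest fast fiber sum (20900 CPM) and the highest macrophage sum (103 CPM) of all pigs. Without it the centered values were 0.39 for fast fiber and -0.44 for macrophage, over 11 pigs. With the slow fiber level as a covariate the log2 FC of CHRNE was 0.42 (SE 0.20) and its unadjusted edgeR p-value was just above 0.05, while those of CHRNA1, MUSK and LRP4 were 0.24, -0.07 and -0.22.

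**Figure D4:**
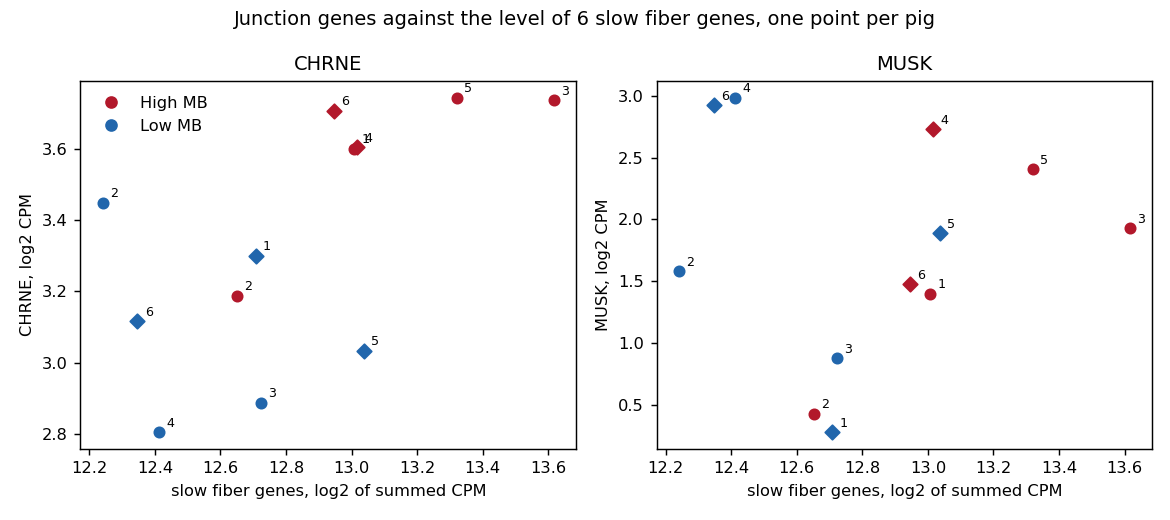
Log2 CPM of CHRNE (left) and MUSK (right) against the log2 of the summed CPM of 6 slow fiber genes for the pigs of the High MB group (red) and the Low MB group (blue), with pig numbers, diamonds for deep libraries and circles for standard ones. For CHRNE r is 0.62 over all pigs, 0.77 in the High MB pigs and -0.30 in the Low MB pigs, and for MUSK it is 0.03 over all pigs.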

How the data were processed

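The authors trimmed the paired-end reads with TrimGalore, mapped them with hisat2 to Sscrofa11.1 and deposited raw htseq-count counts per gene, without normalization. Tool versions, annotation release and the strand setting are not given in the sources used here. The counts by transcript were not used, because no table paired transcripts with genes, so the planned test of the transcripts of the set was not done. Lines of htseq-count that name no gene were left out, and between 47.0% and 48.2% of uniquely aligned reads per pig were on genes.

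The members and lists were chosen with earlier results of these data known. Named genes were all members, list genes with an unadjusted p under 0.05 (at most 3 per list and direction), fixed junction genes (AGRN, ACHE, SCN4A, ERBB2, ERBB3, NRG1, UTRN, MYOG, GABPA) and the 3 genes most like CHRNA1, CHRNE and MUSK. MINK1 and LAMB2 were added after their values were seen.

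Counts were tested with edgeR 4.0.16 in R 4.3.3 (filterByExpr, TMM, quasi-likelihood), 6 against 6 without covariates, with p-values adjusted by Benjamini-Hochberg over 13373 genes. CPM used TMM factors and log2 CPM a prior count of 2. The SE came from the test statistic. Alternatives were DESeq2 1.42.0, other scalings (RLE, upper quartile, TMM without the 10 highest genes), robust estimation, other filters and limits, depth class or individual number as a term, each depth class alone and each pig left out. Exact tests ran over all 924 regroupings, of which the smallest p is 0.00216. The edgeR script was tested on simulated data with 200 changed genes at each fold. Of genes changed 1.4-fold, 0% had an adjusted edgeR p-value under 0.10, and of genes changed 2-fold 69%. The fold of CHRNE was 1.41, so the absence of a call does not exclude a change of that size. Deep libraries (5) were those over 5e+07 gene counts. Symbols matched 14857 of 25880 identifiers. Replicates are separate pigs, and no library repeated another (chi-square per degree of freedom 39.2 to 703 over 66 pairs). Depth limits precision, and counting error is only part of it. Same-numbered pigs were not paired.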

Additional observations from a re-analysis of the deposited data

Results flagged for a closer look

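Single pigs stood apart from the rest of their group for the receptor subunits. For CHRNA1 the Low MB pig 6 was at 13.2 CPM and the next pig of that group at 8.70, a gap of 0.640 of the group's range, and the High MB pig 1 was at 5.22 CPM with the next at 9.48 (0.665). For CHRNE the High MB pig 2 was at 9.07 CPM and the next at 12.1 (0.705). Each gap is past Dixon's limit for 6 samples. Here 3 of the 10 sets of pigs (5 genes in each of the MB groups) were past it. The subunit ratio was examined in each group too, without a flag. The limit is set so that about 1 in 20 independent normal sets passes it. These sets are CPM values of the same pigs, so that rate is no reference for the count.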

How the results depend on the processing

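The log2 FC of CHRNE and CHRNA1 kept its direction under every alternative run. That of MUSK turned positive in the deep libraries alone (0.22) and without the High MB pig 2 (0.02), the Low MB pig 4 (0.13) or the Low MB pig 6 (0.09), with a range of -0.41 to 0.13 over pigs left out, and that of LRP4 turned positive in the deep libraries alone (0.29). None of these MUSK and LRP4 values passed a test in either direction, and the cause was not tested. With 1 pig left out, LRP4 ran from -0.23 to -0.04, the median of the 4 genes from -0.01 to 0.25, the difference of the subunit ratio from 0.11 to 0.42, the junction genes at an unadjusted p under 0.05 from 1 to 2 (CHRNA1 joined without the Low MB pig 6) and the list genes at that limit from 13 to 24. There were 19 such list genes over the 12 pigs and 4 in the deep libraries alone, which are fewer samples. Genes called were 0 in edgeR, 29 in DESeq2, 1 in the deep libraries alone and 3 with the slow fiber level as a covariate (chosen after seeing the data), under which 0 junction genes had an unadjusted p under 0.05. Upper quartile scaling raised the share of higher genes at that limit from 63.0% to 82.0%, with no sign of a junction gene turned. Same-numbered pigs were no closer than others (correlations of their deviations from -0.212 to 0.144, over 0.1 in 1 of 6 pairs), so the replicate block has no pairing behind it. With that block, 957 genes had an unadjusted p under 0.05 against 1132 without it, and 0 were called. The blocked log2 FC was 0.50 for CHRNE and -0.03 for MUSK. Among the tested junction genes the interval was widest for MUSK (SE 0.46), which also had the largest spread between pigs.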

Other observations

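The genes whose log2 CPM most resembled that of a junction gene over the 12 pigs are given as a description, with no test, since they were picked by that likeness. For CHRNE they were PKHD1L1 (r = 0.897), BPHL (0.891) and TRPC1 (0.887), with r of 0.855, 0.813 and 0.785 when both groups were centered. Each had a higher mean in the High MB group, which the choice by likeness to CHRNE favors. PKHD1L1 was at 1.76 against 0.596 CPM, BPHL at 11.6 against 7.78 CPM and TRPC1, a calcium-permeable channel, at 2.48 against 1.4 CPM. For CHRNA1 they were LZTS2 (0.909), IMPDH1 (0.901), an enzyme of guanine nucleotide synthesis, and STAT2 (0.896), a factor of interferon signaling. For MUSK they were MAP2 (0.849), a microtubule-associated protein, ENSSSCG00000035601 (0.847), which carries no symbol, and OLFML2A (0.836).

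MUSK and the macrophage level had r = 0.16 over the 12 pigs (permutation p = 0.627) and rho = 0.39 (permutation p = 0.209), with r = 0.75 without the 2 pigs farthest from the median macrophage level. In the Low MB pigs r was 0.94 (exact permutation p = 0.0139, not adjusted), and in the High MB pigs -0.41 (exact permutation p = 0.421). With both groups centered r was 0.20, and 0.91 over the 11 pigs without the High MB pig 2. That pig was left out after the values were seen, so the value is a description only.

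The lists of fat cell and macrophage markers had median log2 FC values of 0.90 and 0.93, against 0.04 for the junction genes tested. Of 5 adipocyte genes 2 had an unadjusted edgeR p-value under 0.05, FABP4 (log2 FC 1.00) and CIDEC (0.90), and of 5 macrophage genes 3, MRC1 (0.98), CSF1R (0.60) and CD163 (1.09), all with an adjusted edgeR p-value of 0.563 or above. With 1 pig left out, the adipocyte count ran from 1 to 5 (5 without the Low MB pig 5, 1 without most others) and the macrophage count from 1 (without the High MB pig 2, which had the highest macrophage level) to 4. In the deep libraries alone both counts were 0, and in the standard ones they were 5 and 1. With the slow fiber level as a covariate they were 1 and 5, and with the depth class as a covariate 4 and 3. Summed levels overlapped, at 55.3 to 228 against 35.8 to 199 CPM for the adipocyte list and 32.1 to 103 against 19.9 to 41.6 CPM for the macrophage list. Of the 5 muscle identity genes 1 had such a p-value (TNNT1).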
